A study of Mus musculus with 12 samples.

Results

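The anti-CD4 tumours are the 6 of 12 tumours in this study that came from mice given an antibody against CD4, and they were chosen by their treatment label alone. All were subcutaneous tumours of AB1-HA, a murine mesothelioma cell line that expresses influenza haemagglutinin, grown in immunocompetent male BALB/c mice aged 8 to 10 weeks. The mice received 100 µg of anti-CD4 on days -3, 0 and 7 counted from inoculation, and the tumours were excised on day 9. The other 6 tumours, from mice of the same strain, sex and age given PBS on those days, enter no test here. All tumours come from 1 cell line, hosts keep every immune cell that the antibody does not reach, and the labels do not say which mouse bore which tumour, so p-values measure only the spread between these samples.

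CD4 helper T cells support CD8 T cells and activate antigen-presenting cells, and regulatory T cells, which also carry CD4, restrain both. When CD4 T cells are removed, the leukocytes that can still enter a tumour are mainly macrophages and other myeloid cells, CD8 T cells, natural killer (NK) cells and B cells. Ptprc encodes CD45, carried by nearly all leukocytes, Cd8a encodes the alpha chain of the CD8 coreceptor, and Cxcl9 encodes a chemokine that cells make in response to interferon gamma and that attracts T cells bearing the receptor CXCR3. The question taken here is which genes varied with these 3 transcripts from tumour to tumour, and which immune transcripts were present at all. Fewer cells of a type and less RNA per cell cannot be told apart in RNA from whole tumours.

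The 6 libraries held 34453540 to 62061770 estimated counts. Of 35999 gene rows, 14654 reached 1 CPM (the count relative to library size) in at least 3 of the 6 tumours and were kept. Levels below are CPM scaled by TMM, which adjusts library sizes so that most genes keep the same level. No pair of libraries was a copy of another, with a chi-square per degree of freedom of 9.68 to 80.5 over the 15 pairs. Of 11 mesothelial and tumour line genes, 5 were kept. Among them were Msln, which encodes mesothelin, at 89.6 to 150.2 CPM and Pdpn, which encodes podoplanin, at 31.1 to 36.3 CPM. Which cells made these transcripts was not tested. The keratin gene Krt18 and Calb2, which encodes calretinin, both used as mesothelial markers, had 13 and 4 counts in all 6 tumours together.

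CD45 transcripts split the tumours into a high pair and a low set of 4. Ptprc was at 67.9, 59.1, 107, 116, 55.99 and 57.2 CPM in tumours 1 to 6, with a mean of 77.3 ± 27.1 CPM (SD, n = 6). Tumours 3 and 4 lay apart from the other tumours, and the step up to them made up 63.1% of the whole log2 range. Tumours 5 and 6 were within counting error of each other, from 2722 and 3474 counts. So were tumours 2 and 6, tumour 2 with 2534 counts. The gene lies on the minus strand at chr1:138062861-138175708 (GRCm38), Cd8a on the plus strand at chr6:71373427-71379173 and Cxcl9 on the minus strand at chr5:92321347-92328079. The range from lowest to highest was 2.07-fold.

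Cd8a was at 3.41, 3.41, 5.53, 7.76, 2.08 and 1.75 CPM in the same order, a mean of 3.99 ± 2.28 CPM (SD, n = 6) and a range of 4.44-fold. Tumours 4 and 3 were again highest and tumours 5 and 6 lowest, and tumours 1 and 2 could not be ordered, with 119 and 146 counts in libraries of different size. Nor could tumours 5 and 6 be ordered, with 101 and 106 counts. The beta chain gene Cd8b1 was at 0.802, 1.03, 1.58, 3.27, 0.370 and 0.510 CPM, also highest in tumour 4. Relative to 100 CPM of Ptprc, Cd8a stood at 5.02, 5.76, 5.14, 6.69, 3.71 and 3.05 CPM.

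Cxcl9 varied most of the 3 markers, at 6.53, 9.99, 74.3, 36.5, 4.71 and 1.58 CPM, a range of 47.0-fold from 96 counts in tumour 6 to 2878 in tumour 3. Its highest tumour was tumour 3 and not tumour 4, so that Cxcl9 and Cd8a differ in the order of these 2 tumours. Over the 6 tumours the log2 levels of Cd8a and Cxcl9 had a Pearson r of 0.916 (exact permutation p = 0.0194, adjusted p = 0.0278 over 3 marker pairs) and a Spearman rho of 0.886 (exact permutation p = 0.0333, adjusted p = 0.05). Without tumours 4 and 6, the 2 farthest from the median of Cd8a, r was 0.907. Leaving out 1 tumour at a time gave r of 0.865 to 0.963, and the exact permutation p was 0.0583 without tumour 2, 0.05 without tumour 5 and 0.0667 without tumour 6. Both values come from the same libraries. No r is given with Ptprc, since its tumours form 2 separate clusters of fewer than 6.

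Cd4 itself was low and had a different order. It was at 1.40, 1.10, 0.594, 2.06, 1.09 and 1.40 CPM, from 23 counts in tumour 3 to 107 in tumour 4. The lowest Cd4 level was thus in the tumour with the highest Cxcl9, and the highest Cd4 level in the tumour with the highest Cd8a. Scaled together with the PBS tumours and given as values without a test, Cd4 ran from 0.613 to 2.12 CPM in anti-CD4 and from 4.41 to 9.94 CPM in PBS tumours. On that scale the PBS tumours held 91.2 to 186 CPM of Ptprc, 3.42 to 7.77 CPM of Cd8a and 8.02 to 54.1 CPM of Cxcl9.

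**Figure D1:**
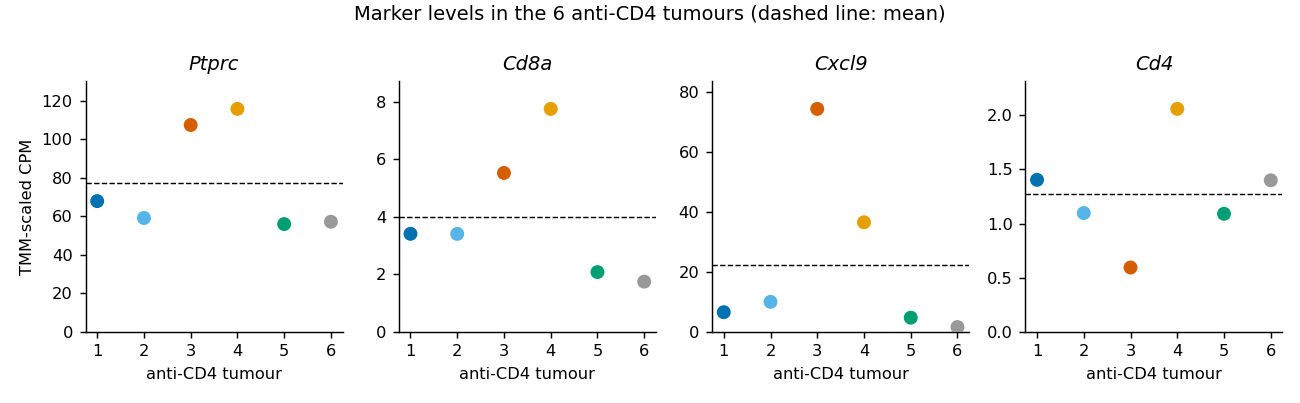
TMM-scaled CPM of Ptprc, Cd8a, Cxcl9 and Cd4 (vertical axes from 0, each with its own scale) in anti-CD4 tumours 1 to 6 (horizontal axes), 1 point a tumour, with the mean as a dashed line. Tumours 3 and 4 are highest for the first 3 genes, while Cd4 is lowest in tumour 3, at 0.594 CPM, and highest in tumour 4, at 2.06 CPM.

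Macrophage and antigen presentation transcripts had the highest levels among the immune genes that remained. Of 325 genes on 24 immune lists, 221 were kept, 195 had 1 CPM or more in all 6 tumours, 67 were under 1 CPM in all 6 and 7 had no count. Per kilobase of exon, the highest mean level among them was that of Lyz2, the lysozyme of myeloid cells, at 609.8 CPM per kilobase. B2m, the light chain of MHC class I, was at 248 on this scale, the class I heavy chain gene H2-D1 at 158, and Cd74, the chaperone of MHC class II, at 137. C1qa and C1qb, subunits of complement C1q made by macrophages, were at 128 and 84.6, and Csf1r, the receptor for the macrophage growth factor, at 52.6. Mmp9, of the neutrophil list, lay between C1qa and C1qb, at 96.9. Which cells of the tumours made the transcripts named here was not tested. All 22 genes of the macrophage and monocyte list were kept.

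Lymphocyte transcripts were present at far lower levels per kilobase. The highest of the 14 kept pan T cell genes apart from Thy1 was Tcf7, at 4.27 CPM per kilobase, while Lck, the kinase of the T cell receptor, was at 2.21 and Cd3e, a chain of its CD3 complex, at 0.801. Thy1, at 20.2, is also made by fibroblasts, and Tcf7 is not restricted to T cells. Foxp3, the lineage factor of regulatory T cells, remained at 4.33, 3.64, 4.83, 3.87, 3.95 and 3.13 CPM, a narrow range that did not set tumours 3 and 4 apart. Il2ra, the high-affinity chain of the interleukin 2 receptor, was at 3.21, 2.99, 5.50, 5.22, 2.72 and 2.62 CPM, highest in tumours 3 and 4. Ifng, which encodes interferon gamma, had 3, 1, 10, 16, 2 and 1 counts and was too low to be kept. Gzmb, a granzyme of cytotoxic cells, was also not kept, with 21, 20, 131, 113, 30 and 20 counts, most in tumours 3 and 4.

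Some immune lists were kept nearly whole and others held few kept genes. All 20 type I interferon and all 16 class I genes were kept, as were 10 of 11 conventional dendritic cell, 10 of 11 mature dendritic cell and 8 of 11 mast cell and basophil genes. Whether other cells made some of these members was not tested, so the number kept does not measure how many such cells were present. Of 14 neutrophil genes, 10 were under 1 CPM in every tumour, among them S100a8 and S100a9, the abundant calcium-binding proteins of neutrophils, and Ly6g, their surface antigen. Of 12 NK cell genes 3 were kept, and Klra4, Klra8 and Klra9, receptors of a family whose near-identical copies the counting cannot separate well, had no count. Whether BALB/c mice carry these genes as the reference does was not checked, so their lack of counts says nothing about NK cells. Of 12 B cell genes 6 were kept, among them Cd79a at 1.16 to 2.55 CPM and Ms4a1 at 0.723 to 1.78 CPM. Ighm and Prdm1 were the 2 plasma cell genes kept of 11. Of the CD4 helper and regulatory list, 6 of 14 were kept, and Cd40lg, Ccr8, Izumo1r, Tnfrsf4, Gpr83 and Ctla4 were under 1 CPM throughout. Ctla4 was listed at 0 counts in every tumour. Whether the counting could detect Ctla4 was not checked, so its lack of counts says nothing about regulatory T cells.

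Immune genes differed between tumours more than most genes did. The SD of log2 CPM over the 6 tumours had a median of 0.138 over all kept genes and 0.403 over the kept immune members. Of the 500 genes with the largest SD, 48 were immune members, 22.02% of the 218 immune genes at that level of expression, against 3.44% of all 14543 genes. The interferon gamma list held 21 of its 28 kept genes there and the pan T cell list 9 of 14, but the macrophage list only Ly6c2 of 22. Transcripts of fat and muscle had a larger share there, 10 of 11 adipocyte genes (90.9%) and 12 of 14 skeletal muscle genes (85.7%).

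**Figure D2:**
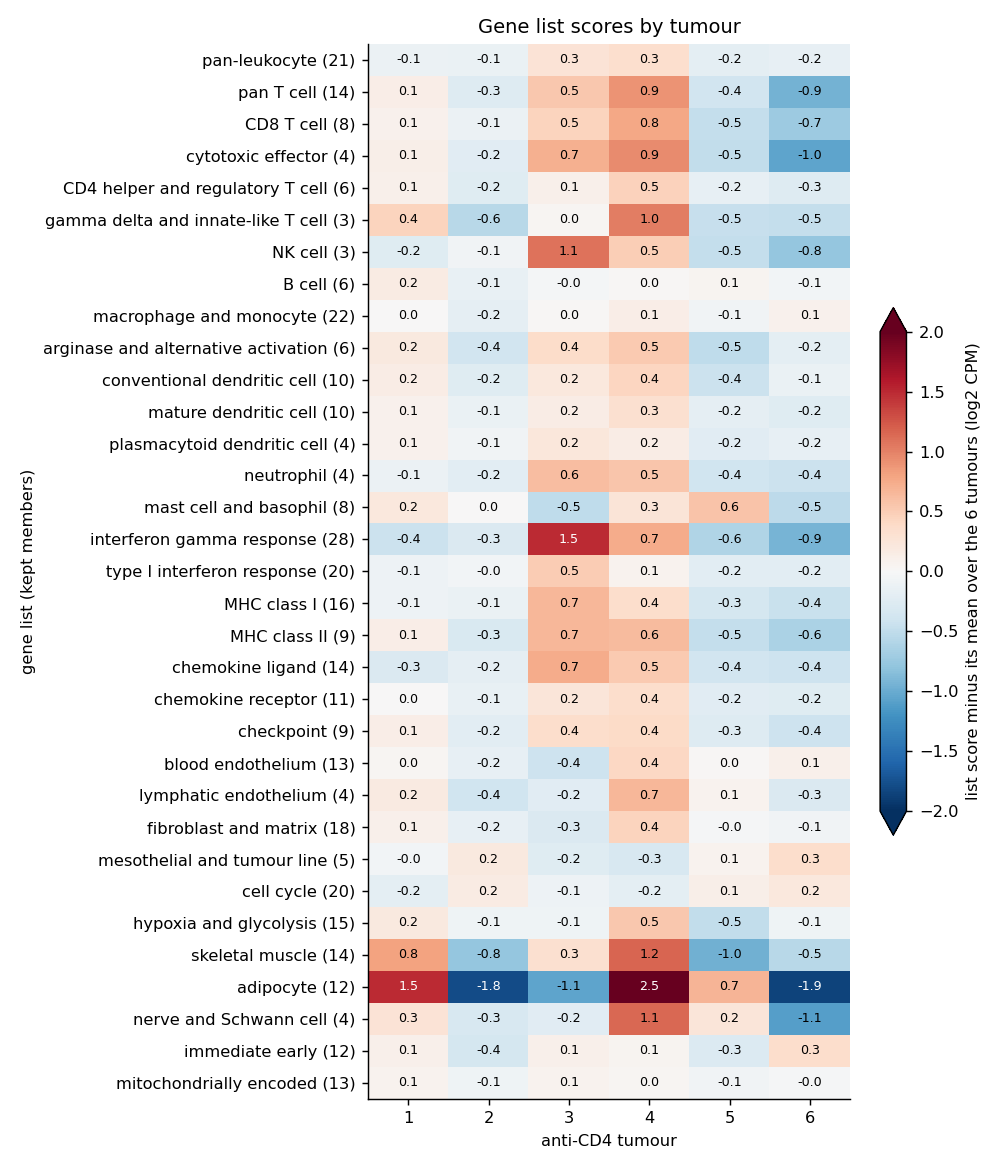
Score of each gene list with at least 3 kept members (rows, number of kept members in brackets) in anti-CD4 tumours 1 to 6 (columns), as the mean log2 CPM of its kept members minus the mean over the 6 tumours, with colours ending at 2 and -2. The interferon gamma score runs from 3.24 in tumour 6 to 5.67 in tumour 3 before centring, the macrophage score only from 5.71 to 6.02, and the adipocyte score from 1.44 to 5.81.

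Genes that followed Ptprc included nearly all kept MHC class II genes and the monocyte gene Ly6c2. For each marker, the slope is the change in log2 expression of a gene per log2 unit of the marker over the 6 tumours, so that 1 means a change in proportion, and a gene was called to follow or to run opposite at an adjusted p under 0.05 in edgeR. By this test 193 of 14653 genes followed Ptprc, 1.32% of those tested, and 11 ran opposite, 0.0751%. Of the followers, 77 were ordered like Ptprc in at least 14 of the 15 pairs of tumours, an order that 3.16% of all genes showed. Here and below, pairs of tumours within counting error of each other in the marker were counted like any other pair. The median slope over all genes was 0.00. Because tumours 3 and 4 lay apart in Ptprc, slopes and p-values on Ptprc rest largely on the difference between them and the rest.

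MHC class II genes, whose products display antigen to CD4 T cells, followed Ptprc in 8 of 9 kept cases, with a list median slope of 1.153. H2-Ab1, a class II beta chain gene on chromosome 17, was at 83.2, 65.2, 132, 132, 61.4 and 54.3 CPM, highest in tumours 3 and 4, and had a slope of 1.153 (SE 0.10, adjusted p = 0.00465). Cd74 was at 216, 173, 346, 338, 167 and 139.7 CPM, with a slope of 1.12 (adjusted p = 0.00557). H2-Aa, H2-Eb1, H2-DMa, H2-DMb1 and H2-DMb2, chains of the presenting molecule and of the DM molecule that loads it, had slopes of 1.005 to 1.52, and Ciita, the transcription factor that switches these genes on, one of 1.35. The exception was H2-Ob, at 0.64 (adjusted p = 0.457). Called class II genes numbered 3 without tumour 2 or 5 and 5 to 8 without any other tumour. The median number of pairs ordered like Ptprc was 13 in this list against 8 over all genes. BALB/c mice carry other MHC alleles than the reference genome, so levels of these and the class I genes are uncertain in size.

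Of the lists of myeloid cells, 1 of 22 macrophage and monocyte, 1 of 10 conventional dendritic cell and 0 of 10 mature dendritic cell genes followed Ptprc. So did 2 of 6 kept arginase and alternative activation genes, Clec10a and Mgl2, and 2 of 4 kept neutrophil genes, beside 1.32% of all genes. Of kept plasmacytoid dendritic cell, mast cell and basophil, and eosinophil genes, 0 of 4, 0 of 8 and 0 of 2 did. Ly6c2, the Ly6C antigen of blood monocytes, was at 2.38, 1.82, 4.80, 5.23, 1.65 and 1.79 CPM, ordered like Ptprc in all 15 pairs (slope 1.57, SE 0.20, adjusted p = 0.0157). It was the called gene of the macrophage and monocyte list. Clec10a and Mgl2, related C-type lectins of dendritic cells and macrophages, had slopes of 1.54 and 1.13, and Itgax, the CD11c integrin chain and the called conventional dendritic cell gene, one of 1.13. Csf3r and Cxcr2, receptors of neutrophils and their precursors and the called neutrophil genes, had slopes of 1.49 and 1.31, while 10 neutrophil genes were under 1 CPM as given above.

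The 10 genes most like Ptprc had all 15 pairs in its order, as 0.505% of all genes did, and all 10 were called. After Ly6c2 and Clec10a they were Il13ra1, a chain of the interleukin 4 and 13 receptor (slope 0.59, SE 0.07), Tnfaip3, the NF-kB inhibitor A20 (0.55), and Ctsh, the lysosomal protease cathepsin H (0.90). The others were Selplg, the selectin ligand PSGL-1 (0.61), Atp8a1, a phospholipid flippase (0.61), Il18r1, a chain of the interleukin 18 receptor (1.60), Pygl, a glycogen phosphorylase (1.06), and Ccl11, the chemokine eotaxin (1.13). Il18r1 ran from 1.75 to 7.22 CPM and Il13ra1 only from 36.99 to 57.8 CPM, so members of the group changed by very different amounts.

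Among lymphocyte genes, Trac, the constant region of the T cell receptor alpha chain (slope 1.86), Lck (1.14) and Bcl11b, a T cell transcription factor (2.37), followed Ptprc, 3 of 14 kept pan T cell genes. The list median slope was 1.41, 13 of the 14 slopes were positive, and 0 were called without tumour 2, 4, 5 or 6. With 1 CPM required in all 6 tumours, 6 of these genes were left, with a median slope of 0.74 and 1 called. Prf1, which encodes perforin, was at 1.23, 0.887, 3.36, 2.54, 0.597 and 0.313 CPM (slope 2.36, adjusted p = 0.0432), and Nkg7, a granule protein of cytotoxic lymphocytes, at 1.86, 1.35, 3.23, 5.66, 1.28 and 0.543 CPM (slope 2.14, adjusted p = 0.0424). They were 2 of the 4 cytotoxic effector genes kept of 13. In edgeR 0 of the 4 were called without tumour 2, 3, 4, 5 or 6 and 0 with the score of muscle, fat and nerve genes as a covariate, and with 1 CPM required in all 6 tumours 0 of the 2 left were called. Cd8a itself followed Ptprc with a slope of 1.56 (SE 0.28, adjusted p = 0.0418). Klrk1, the activating receptor NKG2D, had a slope of 2.15, and Il2ra and Ikzf2, the latter the transcription factor Helios of regulatory T cells, had slopes of 0.99 and 1.19. Foxp3 was not called (slope 0.25, adjusted p = 0.598), nor was Cd4 (0.22, adjusted p = 0.851). None of the 6 kept B cell genes was called, at a median slope of 0.11.

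Of the 20 other kept pan-leukocyte genes, 6 followed Ptprc, with a list median slope of 0.39. Itgal, the CD11a chain of the integrin LFA-1, had a slope of 1.93, while Coro1a, Lcp2, Itgb2, Ikzf1 and Cytip had slopes of 0.45 to 0.78. Laptm5, Tyrobp and Fcer1g, also leukocyte genes and the latter pair signalling adaptors of myeloid cells, had slopes of 0.13, 0.15 and 0.16 and were not called. Laptm5 was at 143, 134, 149.9, 158, 143 and 148 CPM, a range of 1.18-fold beside the 2.07-fold range of Ptprc.

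The score of the macrophage list, the mean log2 CPM of its genes, stayed between 5.71 and 6.02 over the 6 tumours, while its members went both ways. Its median slope on Ptprc was 0.03, with 11 of the 22 slopes positive. The Fc receptor genes Fcgr1 and Fcgr3 had slopes of 0.83 and 0.53 (adjusted p = 0.0531 and 0.0509) and the chemokine receptor gene Ccr2 one of 0.54 (adjusted p = 0.0607), none of them called. Csf1r was at 276, 300.01, 300.4, 292, 302 and 352 CPM (slope -0.09, adjusted p = 0.664), with its highest level in tumour 6, a tumour low in Ptprc. Adgre1, the F4/80 antigen, was at 75.9, 73.98, 71.8, 85.6, 74.1 and 90.8 CPM, and C1qa at 132, 113, 134, 131, 139.8 and 150.1 CPM, with no separation of tumours 3 and 4. Relative to 100 CPM of Ptprc, Csf1r therefore stood at 407, 507, 279, 252, 540.1 and 616 CPM, lowest in the 2 tumours high in Ptprc. Cd68, a lysosomal protein of macrophages, was at 46.95, 64.7, 47.3, 43.9, 63.1 and 75.5 CPM (slope -0.56, adjusted p = 0.121).

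Counts of calls with Ptprc depended on single tumours. Followers and opposite genes numbered 930 and 1007 without tumour 1, 21 and 2 without tumour 2, 198 and 2 without tumour 3, 101 and 2 without tumour 4, 14 and 1 without tumour 5, and 23 and 0 without tumour 6, the last at 950 and 567 genes with an unadjusted p under 0.05 in edgeR. All 193 followers kept a positive slope in these 6 fits. The 12 called in every one were Cd74, H2-Ab1, H2-Eb1, the annotated pseudogene H2-Ea-ps, Cfb, Clec7a, Cybb, Dram1, Fgl2, Il1b, Slfn2 and Tgm2. Of 28 interferon gamma genes, 12 followed Ptprc, and 0 did without tumour 2 or 5. Skeletal muscle and fat transcripts also differed between these tumours, and their part in the calls was tested only by a covariate. The 14 muscle genes summed to 4856, 1110.1, 2753, 5279, 1159 and 1543 CPM, highest in tumours 4, 1 and 3, and all 14 had positive slopes on Ptprc with a median of 1.49, although 0 of the 14 were called. Adipocyte genes summed to 1069, 372, 407, 2261, 717 and 397 CPM, highest in tumours 4 and 1. With a score of muscle, fat and nerve genes as a covariate, chosen after seeing the data, 108 genes followed Ptprc and 1 ran opposite, among them 6 of 9 class II and 0 of 14 pan T cell genes.

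Of the genes that followed Cd8a, most were also called with Ptprc. With Cd8a 38 of 14653 genes were called to follow, 0.259%, and 1 to run opposite, 0.00682%. Of the 38, 31 also followed Ptprc, which is 81.6% of the Cd8a followers and 16.1% of the Ptprc followers. Both markers were measured in the same 6 libraries, so the overlap is a description. The 7 others included Enpp2, Tent5a, Coq8a, Medag, Il33 and Cd8b1, of which Cd8b1, the partner chain of CD8, had a slope of 1.35 (SE 0.19, adjusted p = 0.0415).

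Itgal was the gene most like Cd8a. It was at 9.68, 9.31, 21.9, 26.6, 6.40 and 4.76 CPM, in the order of Cd8a in all 15 pairs, as were 0.744% of all genes, with a slope of 1.20 (SE 0.09, adjusted p = 0.00855). Behind it came Sorl1, a sorting receptor (slope 0.89), Gimap3, a GTPase of lymphocytes (1.27), Cybb, the catalytic chain of the phagocyte NADPH oxidase (0.62), H2-Aa (0.60), Slfn2, a schlafen protein of leukocytes (0.59), Osmr, the oncostatin M receptor (0.34), Nup210, a nuclear pore protein (0.45), Nabp1, a DNA-binding protein (0.33), and Lck (0.71). Gimap3 ran from 0.675 CPM in tumour 6 to 4.62 CPM in tumour 4. Lck was at 5.84, 5.32, 8.19, 11.1, 4.79 and 3.56 CPM, in the order of Cd8a, in which tumours 1 and 2 are nearly tied and tumours 5 and 6 within counting error.

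T cell genes were ordered like Cd8a more often than they were called. Of 14 kept pan T cell genes, 10 had at least 14 of 15 pairs in its order, beside 3.11% of all genes, and 3 were called, Trac and Lck among them, with a list median slope of 0.87. Genes of fat and muscle had slopes on Cd8a of that size, with medians of 1.26 over 12 adipocyte and 0.84 over 14 skeletal muscle genes, every one of them positive and 0 called. With the score of muscle, fat and nerve genes as a covariate, 0 of the 14 pan T cell genes were called, at a median slope of 0.63. Cd3e was at 2.81, 1.82, 4.62, 7.83, 1.87 and 0.642 CPM, highest in tumours 4 and 3, with a slope of 1.38 (SE 0.21, adjusted p = 0.0516). Cxcr3, the receptor for the Cxcl9 product, was at 1.09, 1.45, 1.68, 3.66, 1.15 and 0.626 CPM, with a slope of 0.97 (adjusted p = 0.0724). Of 9 class II genes 4 followed Cd8a, H2-Aa, H2-Ab1, Cd74 and H2-DMb1, and 0 of 28 interferon gamma genes did, although 27 of those 28 slopes were positive with a median of 1.09, and DESeq2 called 24. The count of followers was 344 without tumour 1, 83 without tumour 2, 53 without tumour 3, and 0 without tumour 4, 5 or 6, at 733, 905 and 899 genes with an unadjusted p under 0.05 in edgeR. It was also 0 with the Ptprc level as a covariate, at 106 such genes, and in DESeq2 it was 639.

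Cxcl9 was followed by interferon gamma response genes. In edgeR 78 of 14653 genes followed it, 0.532%, and 3 ran opposite, 0.0205%. Of 27 interferon gamma genes tested, 21 followed Cxcl9, with a list median slope of 0.43 against 0.00 over all genes, and 9 of 16 class I genes did, with a median of 0.20. In these lists 21 and 9 genes were ordered like Cxcl9 in at least 14 pairs, beside 1.83% of all genes. Of the 78, 52 also followed Ptprc, 66.7% of the Cxcl9 and 26.9% of the Ptprc followers, and 13 also followed Cd8a, 16.7% and 34.2%. The 13 called with all 3 markers were Cd74, H2-Aa, H2-Ab1, H2-Ea-ps, H2-D1, H2-Q6, Itgal, Cytip, Ddx60, Ly6a, Plbd1, Slfn2 and Tmem229b.

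Many genes that respond to interferon gamma carry the gamma-activated sequence, GAS, or the interferon-stimulated response element, ISRE, which factors of the IRF family bind. Their usual letters, TTCNNNGAA for GAS and, for ISRE, GAAA and GAAA around any 2 bases, were searched on both strands in the 250 bases before the start site of each gene in RefSeq (build GRCm38.p6). The 130 bases before the start site are shown for 5 interferon gamma genes that followed Cxcl9, GAS alone in Irf1 and GAS with ISRE in the others. Among called genes not shown, Gbp2 and Gbp3 held ISRE alone in this stretch. Gbp5, Serpina3g and Psmb8 held GAS alone, and Tgtp1 held GAS with ISRE. Matches to either motif are in capitals.
Irf1: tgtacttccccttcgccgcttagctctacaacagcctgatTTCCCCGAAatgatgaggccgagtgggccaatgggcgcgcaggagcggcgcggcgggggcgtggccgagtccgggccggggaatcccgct
Gbp7: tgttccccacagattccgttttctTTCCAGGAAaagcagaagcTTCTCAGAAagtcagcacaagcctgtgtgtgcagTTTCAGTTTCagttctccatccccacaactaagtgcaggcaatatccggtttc
Igtp: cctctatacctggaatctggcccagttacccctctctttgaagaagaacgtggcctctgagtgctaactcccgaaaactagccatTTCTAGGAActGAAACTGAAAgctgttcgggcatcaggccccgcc
Irgm2: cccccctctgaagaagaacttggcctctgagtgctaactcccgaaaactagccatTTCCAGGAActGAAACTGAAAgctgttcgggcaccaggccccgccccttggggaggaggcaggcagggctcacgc
Tgtp2: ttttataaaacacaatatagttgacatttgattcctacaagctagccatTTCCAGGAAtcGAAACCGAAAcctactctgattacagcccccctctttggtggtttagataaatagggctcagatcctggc
The stretches lie at chr11:53769884-53770013, chr3:142530206-142530335, chr11:58199426-58199555 and chr11:58214847-58214976 on the plus strand, and at chr11:49064213-49064342 on the minus strand. In Igtp, Irgm2, Tgtp1 and Tgtp2 the ISRE letters begin 2 bases after the GAS letters end, and in Gbp7 they begin 25 bases after the nearer of 2 GAS matches. Igtp, Irgm2, Tgtp1 and Tgtp2 encode related GTPases of 1 family, so their shared arrangement is not independent.

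Among the 50 of 78 Cxcl9 followers with a RefSeq promoter, 26% held GAS letters, 36% ISRE letters and 48% either. Among the 10893 kept genes with a promoter the shares were 7.44%, 3.41% and 10.4%, and among all 32851 RefSeq windows 7.02%, 2.98% and 9.67%. Followers of Ptprc held them in 16.1%, 13.1% and 26.3% of 137, and those of Cd8a in 18.5%, 11.1% and 29.6% of 27. Of the 21 called interferon gamma genes, 15 had a promoter in the table and 11 of these held a match. A match of letters is not a bound site, and several of these promoters belong to related genes.

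The guanylate-binding proteins, GTPases that attack vacuoles of intracellular pathogens, made up 5 of the 10 genes most like Cxcl9 (Gbp9, Gbp4, Gbp2b, Gbp10 and Gbp2). Gbp9 was at 24.1, 25.8, 68.5, 47.8, 18.7 and 15.1 CPM, in the order of Cxcl9 in all 15 pairs, as were 0.437% of all genes (slope 0.41, SE 0.03, adjusted p = 0.0025). Gbp4 was at 13.6, 14.03, 84.1, 39.3, 9.07 and 6.21 CPM (slope 0.69, SE 0.05), and Gbp2b at 28.99, 34.6, 193, 78.9, 21.5 and 15.6 CPM (slope 0.66, SE 0.06). In each, tumour 3 was highest, tumour 4 next and tumour 6 lowest. Gbp2, Gbp3, Gbp5, Gbp6, Gbp7 and Gbp10 were called as well, with slopes of 0.39 to 0.85. Gbp10 and Gbp6 share 46.3% and 28.99% of their exonic bases with the gene model Gm43302 on the same strand, and reads of such close relatives can be split among them, so single values in this family are less certain than their common order. The immunity-related GTPases Iigp1 (slope 0.69), Igtp (0.54), Irgm2 (0.50), Tgtp1 (0.67) and Tgtp2 (0.51) followed too. Iigp1 was at 24.1, 24.6, 171, 97.9, 20.2 and 13.8 CPM.

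Irf1, a transcription factor of the response, followed Cxcl9 with a smaller slope. It was at 43.8, 48.9, 105, 76.9, 44.4 and 39.4 CPM (slope 0.26, adjusted p = 0.0127). Irf1 was highest in tumour 3, with tumour 4 next, and the other 4 tumours lay close together. Cxcl10 and Cxcl11, the other ligands of CXCR3, were highest in the same 2 tumours but not called, Cxcl10 at 12.8, 15.2, 60.9, 31.3, 12.96 and 13.1 CPM (slope 0.42, adjusted p = 0.0944) and Cxcl11 at 0.926 to 7.51 CPM (slope 0.52, adjusted p = 0.0637). The inhibitor Socs1 had a slope of 0.12 (adjusted p = 0.115), and Nos2, the inducible nitric oxide synthase, one of -0.01 (adjusted p = 0.982), with 4.57 CPM in tumour 3 and 4.15 CPM in tumour 6.

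**Figure D3:**
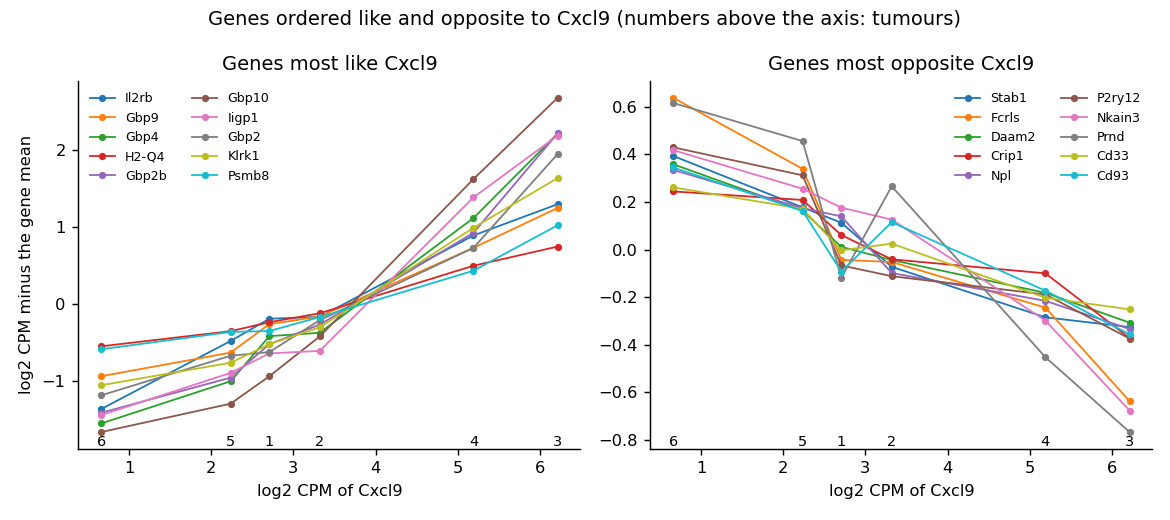
Log2 CPM minus the gene mean (vertical axes) against log2 CPM of Cxcl9 (horizontal axes) for the 10 genes most like Cxcl9 in order (left) and the 10 most opposite (right), 1 line a gene, with tumour numbers above the axis. Genes on the left rise along the order 6, 5, 1, 2, 4, 3, as Gbp4 from 6.21 to 84.1 CPM, and those on the right change less, as Stab1 from 398 to 242 CPM.

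Antigen processing for MHC class I followed Cxcl9 closely. Psmb8 and Psmb9, subunits of the immunoproteasome, had slopes of 0.29 and 0.34, Psmb10 one of 0.25, Tap1 and Tap2, the peptide transporter, slopes of 0.29 and 0.20, and Nlrc5, the transcription factor of class I genes, one of 0.43. Psmb8 was at 23.1, 26.2, 59.8, 39.7, 22.9 and 19.6 CPM, ordered like Cxcl9 in all 15 pairs. H2-Q4, a nonclassical class I gene, was at 37.3, 40.4, 73.7, 62.01, 34.4 and 30.1 CPM (slope 0.25, SE 0.02, adjusted p = 0.00605). H2-D1, H2-Q6, H2-T22, H2-T23 and Tapbpl were called too, while H2-K1 (slope 0.14, adjusted p = 0.0623) and B2m (0.07, adjusted p = 0.583) were not. Cd274, which encodes the checkpoint ligand PD-L1 and is on the interferon gamma list, was at 7.99, 7.58, 27.8, 15.6, 5.12 and 4.08 CPM (slope 0.50, SE 0.04, adjusted p = 0.00605). Of 9 kept checkpoint genes it was the 1 called with Cxcl9, and an antisense transcript shares 14.1% of its exonic bases. Psmb8, H2-Q4 and H2-T22 overlap antisense transcripts as well, over 14.7%, 19.1% and 29.4% of their exonic bases, so without knowing how strand was handled their reads cannot be told apart.

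Lymphocyte receptors were among the closest followers of Cxcl9. Il2rb, the beta chain of the interleukin 2 and 15 receptors, was at 9.57, 9.73, 26.8, 20.2, 7.84 and 4.25 CPM, ordered like Cxcl9 in all 15 pairs (slope 0.47, SE 0.03, adjusted p = 0.0025). Klrk1 was at 2.41, 2.80, 10.7, 6.85, 2.04 and 1.66 CPM, also in all 15 pairs (slope 0.52, SE 0.06, adjusted p = 0.0121). Both genes are carried by NK cells and CD8 T cells. Prf1 followed with a slope of 0.61 (adjusted p = 0.0239), and 0 of 14 pan T cell genes were called, at a median slope of 0.33. The kept NK cell genes Ncr1 and Klre1 had slopes of 0.40 and 0.12 and were not called (adjusted p = 0.111 and 0.514).

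Genes of the type I interferon response had smaller slopes than those of interferon gamma. Of 20, Oas3 and Zbp1 followed Cxcl9 and none was called with Ptprc or Cd8a (0 of 20 each), and the list median slope on Cxcl9 was 0.11. Of the 20 slopes on Cxcl9 19 were positive, and 9 of the 20 genes were ordered like it in at least 14 pairs, beside 1.83% of all genes. Mx1, an antiviral GTPase, was at 13.1, 9.36, 12.5, 10.6, 8.95 and 8.60 CPM, with no separation of tumours 3 and 4. Isg15, a ubiquitin-like protein, was at 9.28, 13.4, 17.1, 11.01, 10.5 and 10.6 CPM, highest in tumour 3 (slope 0.11, adjusted p = 0.404). The difference between the 2 lists was not tested.

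**Figure D4:**
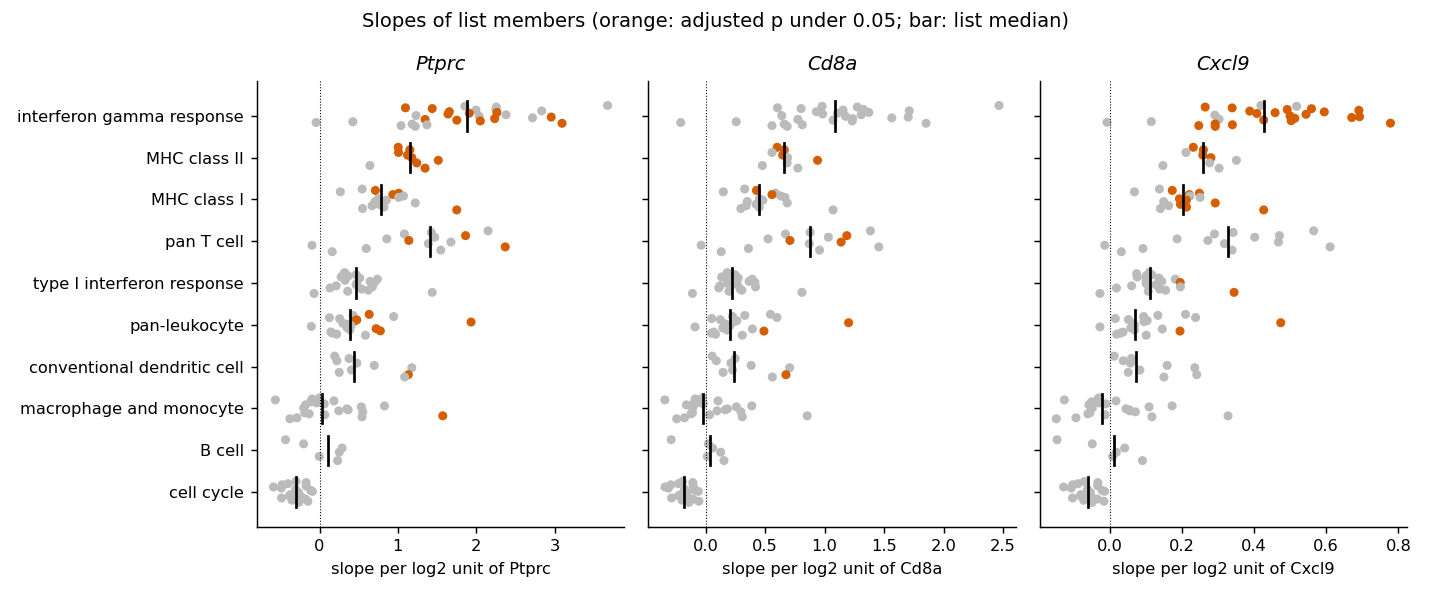
Slopes of the kept members of 10 lists (rows) on Ptprc, Cd8a and Cxcl9 (panels; horizontal axes in log2 units of the gene per log2 unit of the marker, each with its own scale), 1 point a gene, orange where called at an adjusted p under 0.05, with the list median as a bar. On Cxcl9 the interferon gamma list has a median of 0.43 and the type I list 0.11, and the macrophage list has members on both sides of 0 on all 3 markers.

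Of the 6 fits that left out 1 tumour, the one without tumour 3 had the fewest adjusted calls with Cxcl9. Followers numbered 196 without tumour 1, 66 without tumour 2, 5 without tumour 3, 39 without tumour 4, 23 without tumour 5 and 45 without tumour 6, and all 78 kept a positive slope. At an unadjusted p under 0.05 the edgeR counts were 993 without tumour 3, 585 without tumour 5 and 595 without tumour 6, against 869 with all tumours. Of the interferon gamma list, 3 genes were called without tumour 3, 10 without tumour 5 and 16 to 22 without any other tumour, and of the class I list 0 without tumour 3, 3 without tumour 5 and 4 without tumour 6. Without tumour 3 the median slope was 0.38 for the interferon gamma list and 0.16 for the class I list. Without both tumours 3 and 4, chosen after seeing the data, these medians were 0.22 and 0.13 with 0 genes called, at 100 genes with an unadjusted p under 0.05 in edgeR. Gbp2b, Gbp4, Gbp9 and Il2rb were called in all 6 fits that left out 1 tumour. With the Ptprc level as a covariate 0 genes were called, at 127 with an unadjusted p under 0.05, and the median slope of the interferon gamma list was 0.28. With the score of muscle, fat and nerve genes as a covariate 101 genes followed, 19 of them on the interferon gamma list. With the log2 total as a covariate only 6 genes followed in edgeR, at 759 with an unadjusted p under 0.05. In that fit 3 of 27 interferon gamma and 1 of 16 class I genes were called, at median slopes of 0.47 and 0.18.

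The 3 genes called to run opposite to Cxcl9 were Stab1, Fcrls and Daam2. Without tumour 3, 5 or 6 the count was 0 in edgeR, at 350, 452 and 277 genes with an unadjusted p under 0.05, and it was 220 without tumour 1. Stab1, the scavenger receptor stabilin-1 of macrophages and some endothelium, was at 328, 289, 242, 249, 343 and 398 CPM, in the reverse order of Cxcl9 in all 15 pairs, as were 0.232% of all genes (slope -0.14, SE 0.02, adjusted p = 0.0127). Fcrls, an Fc receptor-like scavenger receptor of resident macrophages, was at 34.3, 34.05, 22.7, 29.8, 44.7 and 54.9 CPM (slope -0.21, SE 0.03, adjusted p = 0.016). Both were lowest in tumour 3 and highest in tumour 6. Daam2, a formin of Wnt signalling, was the third (slope -0.12, adjusted p = 0.0465). The next 7 in order were not called, among them P2ry12, an ADP receptor of resident macrophages, Cd33, an inhibitory lectin of myeloid cells, and Cd93, a receptor of endothelium and myeloid cells. P2ry12 was at 4.03 to 7.03 CPM and Cd93 at 123 to 199.97 CPM, each lowest in tumour 3 and highest in tumour 6. Apoe and Cx3cr1, both on the macrophage list, were ordered opposite to Cxcl9 in 14 of 15 pairs, as were 1.62% of all genes, and had slopes of -0.15 and -0.09 (adjusted p = 0.345 and 0.15). Ccr2, of the same list, was ordered like Cxcl9 in 14 of 15 pairs (slope 0.12, adjusted p = 0.223), and Msr1 and Cd163, scavenger receptor genes of macrophages, had slopes of 0.06 and 0.07, not called.

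Krt8, which encodes keratin 8, was the 1 gene called opposite to Cd8a. It was at 1.92, 2.73, 1.52, 0.943, 3.50 and 6.54 CPM, in the reverse order of Cd8a in all 15 pairs, as were 0.703% of all genes, with a slope of -1.19 (SE 0.17, adjusted p = 0.0417). It lost its call in the fits without tumours 3, 4, 5 or 6, where 0 genes ran opposite. Mesothelial Upk3b and Muc16, not kept, were also highest in tumour 6, at 1.84 and 2.80 CPM. Of 11 mesothelial and tumour line genes 5 were kept, of which 2 had positive slopes on Cd8a and none but Krt8 was called. Cilp, a matrix protein of cartilage, was at 133, 166, 118, 114, 178 and 187 CPM and ran opposite to Ptprc (slope -0.61, SE 0.10, adjusted p = 0.0314). Snap47, a protein of the SNARE family, did so as well (slope -0.46, adjusted p = 0.047), and shares 11.6% of its exonic bases with Jmjd4 on the opposite strand. The 9 others called opposite to Ptprc, named after their values were seen, were Gpr34, a lipid receptor of resident macrophages, Hmga1, a chromatin protein, Osr2, a transcription factor, Ptms, Prnd, which lies within the gene model Prn over 97.2% of its exonic bases, and the gene models or pseudogenes Gm10719, Gm14117, Gm15429 and Tpt1-ps3. Gpr34 was at 15.6, 13.2, 8.81, 7.79, 14.03 and 15.5 CPM (slope -0.86, adjusted p = 0.042). Pthlh, the parathyroid hormone-related protein, at 16.3 to 23.7 CPM, was in the reverse order of Ptprc in all 15 pairs but was not called (slope -0.39, adjusted p = 0.104). Over all genes, 1.86% were ordered opposite to Ptprc and 3.13% opposite to Cd8a in at least 14 pairs.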

How the data were processed

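Whole-tumour RNA depleted of ribosomal and globin transcripts was sequenced as paired reads of 100 bases, per the labels' protocols. The values are estimated counts per gene deposited by the authors, with bcl2fastq 2.20.0.422, kallisto and the build GRCm38.p6 named, per the submitters' processing notes. Not given in the sources used here were the annotation release, the summing over transcripts, the handling of strand, and filters. Of 35999 gene symbols, 35973 matched an annotation of that build and 26 had been turned into dates. Kallisto divides reads among similar transcripts, so paralogs share error.

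Here the counts of the 6 anti-CD4 tumours, 34453540 to 62061770 per tumour, were rounded and scaled by TMM, and genes with at least 1 CPM in 3 of 6 tumours were kept. Library sizes took in all rows. For each marker, edgeR 4.0.16 (R 4.3.3, quasi-likelihood test, common biological coefficient of variation 0.179) fitted every gene on the log2 CPM of the marker (prior count 2), with Benjamini-Hochberg adjustment over all 14653 genes and a threshold of 0.05. The SE of a slope was taken from the slope and its F statistic and is approximate. The order of the tumours was compared over the 15 pairs. Alternatives were DESeq2 1.42.0, limma 3.58.1 with voom, other scalings and filters, the log2 total or the Ptprc level as a covariate, and leaving out tumours. Only the edgeR slope fit was tried on simulated counts, with known slopes on the Cxcl9 level and noise drawn separately for each gene. That trial does not cover the clustered Ptprc levels, the ordering of pairs, the permutations or the motif search.

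Named genes are the markers and Cd4, the 10 most like and 10 most opposite to each marker (by ordered pairs, then F, with a mean log2 CPM of at least 0 and a range of at least 0.5), the first 4 members of each list, called members, and members under 1 CPM in all 6 tumours. Some genes of these sets are not reported here. Other genes were named after their values were seen. The group, the markers and the lists were chosen with earlier results of these data known. Overlaps between genes count shared exonic bases in the annotation.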

Additional observations from a re-analysis of the deposited data

Results flagged for a closer look

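In 4 of 234 sets of 6 values, 1 tumour lay far from the others, by Dixon's test of the gap to its nearest neighbour as a share of the whole log2 range. Chance alone flags about 1 in 20 such sets. Arg1, which encodes arginase 1 of myeloid cells, was at 7.96, 9.08, 19.1, 8.14, 7.94 and 10.4 CPM, and tumour 3 was highest with a gap share of 0.694. Ifit1, an antiviral protein induced by interferon, was at 17.5, 20.2, 28.4, 19.7, 17.98 and 18.5 CPM, also highest in tumour 3 with a gap share of 0.706. Csf1r, with the values given above, was highest in tumour 6 with a gap share of 0.630. Flt3, a growth factor receptor of dendritic cells and their precursors, was at 5.50, 3.62, 5.14, 5.45, 4.94 and 5.04 CPM, lowest in tumour 2 with a gap share of 0.742.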

How the results depend on the processing

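No paired analysis was possible because only the anti-CD4 group was analysed, with no comparison between groups that share replicate numbers. Leaving out 1 tumour at a time gave 14 to 930 genes following Ptprc and 0 to 1007 running opposite, 0 to 344 and 0 to 317 for Cd8a, and 5 to 196 and 0 to 220 for Cxcl9. Genes ordered like the marker numbered 227 to 319 for Ptprc, 274 to 350 for Cd8a and 136 to 363 for Cxcl9 over the 10 pairs left, and r of Cd8a and Cxcl9 was 0.865 to 0.963. The cause of these changes was not tested.

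DESeq2 called 690 and 191 genes following and opposite to Ptprc, 639 and 235 for Cd8a, and 338 and 100 for Cxcl9. Limma voom gave 130 and 15 for Cd8a. Without a filter there were 160 and 25 for Cd8a and 145 and 19 for Cxcl9, and a filter of 1 CPM in all 6 tumours left 0 opposite to Cd8a. Upper quartile scaling gave 26 opposite to Ptprc, 2 to Cd8a and 5 to Cxcl9, RLE scaling gave 2 opposite to Cd8a, and TMM factors over 12 tumours gave 58 following Cd8a and 2 opposite. Genes ordered like Cd8a fell from 455 to 300 with RLE scaling and 294 without a filter.

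With the log2 total as a covariate, 21 genes ran opposite to Ptprc, 0 followed and 0 ran opposite to Cd8a, and 6 followed and 0 ran opposite to Cxcl9. With the Ptprc level as a covariate the counts were 0 and 0 for Cd8a and 0 and 0 for Cxcl9. Of the alternatives chosen after seeing the data, the muscle, fat and nerve score gave 108 and 1 for Ptprc, 0 and 0 for Cd8a, and 10 opposite to Cxcl9, and leaving out both tumours 3 and 4 gave 0 and 0 for Cd8a and 0 and 0 for Cxcl9. Without the 2 tumours farthest from the median of the marker, the counts were 0 and 0 for Cd8a and 0 and 0 for Cxcl9. For Ptprc these were tumours 3 and 4. Without them 572 genes followed and 773 ran opposite, over Ptprc levels of only 55.99 to 67.9 CPM. The median slope was then 0.0073 over 20 pan-leukocyte genes, 10 of them positive, and 2.16 over 9 class II genes, all positive. In that fit to Ptprc, 4 named slopes changed sign, Ccl8 to -0.56, Coro1a to -0.22, Gbp6 to -0.061 and Tgtp2 to -0.0094. Cd8a rests on 101 to 403 counts a tumour, and 6 tumours limit the precision of every slope.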

Other observations

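No gene of the cell cycle list was called with any marker in edgeR. All 20 had negative slopes on Ptprc, Cd8a and Cxcl9, with medians of -0.30, -0.18 and -0.06, with 0 called. The list score was 6.32, 6.67, 6.40, 6.32, 6.62 and 6.73 in tumours 1 to 6, so that tumour 1, low in Ptprc, was as low as tumour 4. Mki67, the proliferation antigen Ki-67, was at 606, 627, 573, 529, 670.4 and 719.9 CPM, in the reverse order of Cd8a in all 15 pairs (slope -0.19, edgeR adjusted p = 0.0696). Cdk1, the kinase that drives mitosis, was at 52.97, 72.1, 50.1, 48.02, 70.99 and 79.01 CPM, lowest in tumour 4 and highest in tumour 6 (slope on Ptprc -0.59, adjusted p = 0.0643).

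The mast cell genes Cpa3 and Tpsb2 had an order unlike that of the 3 markers. Cpa3, a mast cell protease, was at 13.01, 11.9, 5.63, 10.95, 18.3 and 8.48 CPM and Tpsb2, a tryptase, at 31.9, 31.9, 15.8, 33.6, 51.4 and 22.3 CPM, both highest in tumour 5 and lowest in tumour 3. The score of the whole mast cell and basophil list was also highest in tumour 5, at 3.90. It was lowest in tumour 6, at 2.81, with tumour 3 at 2.82, so not all members shared this order. None of the 8 kept genes of the list was called (0 of 8 with each marker). Of 15 hypoxia and glycolysis genes, 1 was called to follow Ptprc, beside 1.32% of all genes. On Ptprc 14 of the 15 slopes were positive, with a median of 0.43. The called gene was Hk2, a hexokinase, at 56.8, 41.8, 62.98, 72.8, 39.7 and 45.7 CPM (slope 0.68, edgeR adjusted p = 0.0326). Car9, a carbonic anhydrase induced by hypoxia, ranged from 3.91 CPM in tumour 5 to 49.1 CPM in tumour 4.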
